A study of Mus musculus with 35 samples.

Results

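The matrix metalloproteinase (MMP) genes Mmp2, Mmp3, Mmp8, Mmp9, Mmp10, Mmp11, Mmp12, Mmp13, Mmp14 and Mmp19 were followed in mouse skin wounds. They are 10 of the 22830 gene symbols in each of 2 deposited count tables, were picked by symbol alone, and were all tested in every comparison. RNA came from punch biopsies of the middle of a full-thickness excision wound, in 35 libraries of 8 groups. All mice were on a B6 background, 8 to 12 weeks old and of either sex, carried Col5a1 alleles flanked by loxP sites on both chromosomes, and received tamoxifen around the day of wounding. Col5a1CKO mice also carried Col1a2-CreERT, which removes Col5a1, the gene of the alpha 1 chain of type V collagen, in cells that use a Col1a2 enhancer, chiefly fibroblasts. WT refers to littermates without Cre. The first table held 7 WT and 7 Col5a1CKO wounds at day 14, 3 day 14 Col5a1CKO wounds that had received cultured WT skin fibroblasts intradermally at day 3, and day 19 wounds of either genotype, 3 each. By the study's methods mice without fibroblasts were given PBS alone, and the labels do not say so for single wounds, which are called untreated here. The second table held day 14 wounds only, 4 WT and 4 Col5a1CKO of mice given PBS vehicle and 4 Col5a1CKO of mice given cilengitide. Cilengitide is an inhibitor of the integrins alpha v beta 3 and alpha v beta 5. Below, day 14 without a named treatment refers to the first table. In such bulk samples fewer cells of a type and less RNA per cell cannot be told apart.

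MMPs are zinc endopeptidases that cut collagens and other matrix proteins, and most are secreted as inactive proenzymes that must be cleaved to work. In healing skin they clear damaged matrix, free keratinocytes to migrate and open paths for leukocytes, and tissue inhibitors of metalloproteinases (TIMPs) hold them in check. Fibroblasts are the usual source of the gelatinase Mmp2, the stromelysins Mmp3 and Mmp11, the collagenase Mmp13 and the membrane-anchored Mmp14, which activates Mmp2, and these 5 are called stromal below. Neutrophils store the collagenase Mmp8 and the gelatinase Mmp9 in granules and macrophages make the elastase Mmp12, and these 3 are called leukocyte genes. Mmp10, stromelysin 2, is typical of the migrating epidermal edge, and Mmp19 has several sources. These names describe the usual source of each gene and were not measured here.

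Libraries of the first table held 15043531 to 35700337 counts over the rows used, and those of the second 51211600 to 68266760. No pair of libraries within a group agreed within sampling noise, so none looked like a repeat deposit. The ratio of Col5a1 to Col1a1, with counts scaled to library size (CPM), was 0.106 to 0.175 in the WT groups and at most 0.0583 in each Col5a1CKO group, so the genotype labels fit the libraries, although Col5a1 itself missed the threshold at day 14 (log2 fold change -1.43, adjusted p = 0.0756). For the 3 day 19 Col5a1CKO wounds a treatment field mentions fibroblasts, while titles and column headers do not, and these were followed. By the balance of GC-rich and GC-poor genes the first table split into a lower set of 9 libraries, which are at day 14 the WT wounds a to d and the Col5a1CKO wounds a to e, and an upper set of the other 14. In the upper set the day 14 WT wounds had RNA of Y-linked genes and the day 14 Col5a1CKO wounds, with or without fibroblasts, had Xist, so sex and genotype cannot be told apart there.

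Of the 10 genes, 5 lie in 1 cluster on chromosome 9 and the other 5 lie elsewhere. In NCBI37/mm9 the cluster spans 427 kb and 10 MMP genes, from Mmp13 (chromosome 9, 7272514 to 7283333, plus strand) through Mmp12 (7344381 to 7369499, plus strand), Mmp3 (7445822 to 7455972, plus strand), Mmp10 (7502352 to 7510238, plus strand) and Mmp8 (7558429 to 7568486, plus strand). Mmp2 lies on chromosome 8 (95351227 to 95377316, plus strand), Mmp9 on chromosome 2 (164766280 to 164781350, plus strand), Mmp14 on chromosome 14 (55050441 to 55060095, plus strand), Mmp11 on chromosome 10 (75385967 to 75400678, minus strand) and Mmp19 also on chromosome 10 (128228009 to 128237880, plus strand). The 3′ end of Mmp12 overlaps Mmp1b on the other strand, and whether counting used strand is not given in the sources used here, so reads of these genes may be shared. Mmp1b had 0 to 657 counts per library in the first table.

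**Figure D1:**
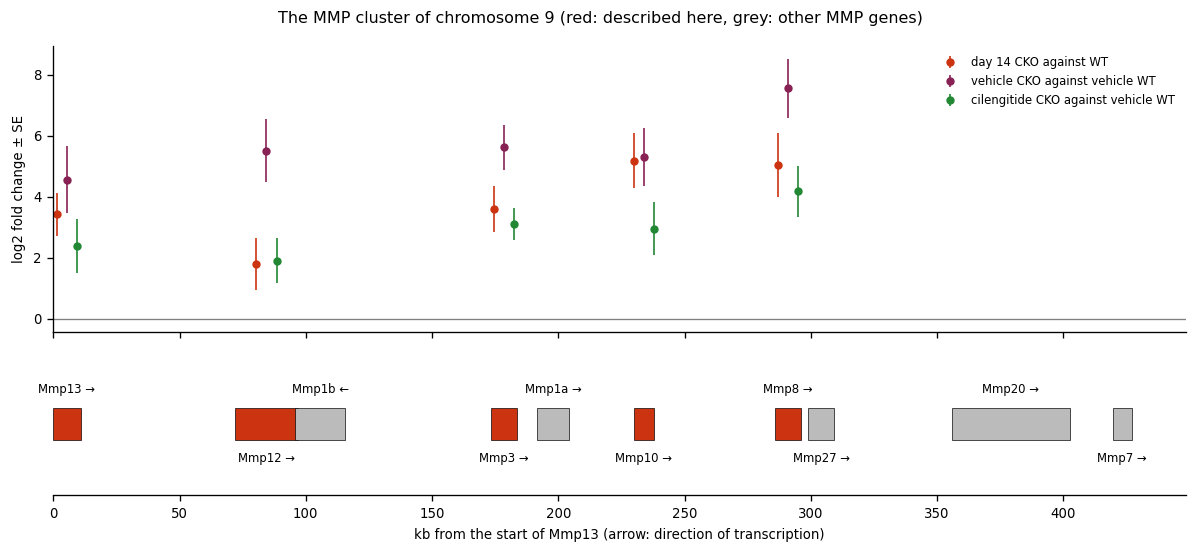
The upper panel plots the log2 fold change from WT (edgeR, bars ± SE) of the 5 genes described here that lie in the chromosome 9 cluster, at each gene's centre with the comparisons offset by up to 4 kb, for day 14 and vehicle-treated Col5a1CKO (CKO) and cilengitide-treated Col5a1CKO wounds, and the lower panel draws the 10 MMP genes of the cluster to scale in kb from the start of Mmp13. All of the plotted points lie above 0, with Mmp8 of the vehicle-treated wounds the highest at 7.55.

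Promoters are shown because 4 of the 5 clustered genes have the AP-1 element, the binding site of Fos and Jun proteins through which cytokines and integrin signals are known to switch on MMP genes. RefSeq promoters of GRCm38.p6 were found for 7 of the 10 genes, and the 100 bases before the start of transcription are given 5′ to 3′ on the plus strand, with the AP-1 heptamer (TGACTCA on either strand) and the TATA box (TATAAA) in capitals.
Mmp3 (chr9:7445722-7445821): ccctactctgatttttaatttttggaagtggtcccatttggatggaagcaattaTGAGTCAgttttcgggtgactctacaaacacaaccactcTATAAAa
Mmp13 (chr9:7272414-7272513): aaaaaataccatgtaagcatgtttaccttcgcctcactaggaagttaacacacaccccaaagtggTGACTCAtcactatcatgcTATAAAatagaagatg
Mmp10 (chr9:7502242-7502341): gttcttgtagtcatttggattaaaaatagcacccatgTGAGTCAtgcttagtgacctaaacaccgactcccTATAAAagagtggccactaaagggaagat
Mmp8 (chr9:7558329-7558428): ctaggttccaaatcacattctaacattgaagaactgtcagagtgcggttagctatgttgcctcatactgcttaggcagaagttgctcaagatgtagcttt
The AP-1 heptamer began 46 bases before the start in Mmp3, 35 bases before it in Mmp13 and 63 bases before it in Mmp10. Mmp8 had no match in this window, nor had Mmp11, Mmp14 or the first of the RefSeq promoters of Mmp12, while the second Mmp12 promoter had the AP-1 heptamer 44 bases before its start. In the 250 bases before the start, 4.46% of 32851 RefSeq mouse promoters held the heptamer and 12.4% held TATAAA. A match describes letters and not binding.

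The levels per transcript length (RPKM, reads scaled to length and library size) put Mmp2 and Mmp14 first in WT wounds at day 14 and the granulocyte gene Mmp8 last. In WT wounds the medians ran from Mmp2 (82.3 RPKM) and Mmp14 (78.0) through Mmp12 (60.4), Mmp3 (31.2), Mmp9 (17.0), Mmp13 (11.4), Mmp19 (9.29), Mmp11 (6.96) and Mmp10 (4.20) to Mmp8 (0.488). Neighbours in that order had overlapping ranges. In Col5a1CKO wounds Mmp14 (288 RPKM) and Mmp2 (268) still led, followed by Mmp3 (209), Mmp13 (185), Mmp10 (83.7), Mmp12 (77.4), Mmp9 (66.7), Mmp19 (36.9), Mmp8 (30.6) and Mmp11 (13.3), again with overlapping neighbours. Summed over the 10 genes, RPKM was 102 to 545 in the 7 WT wounds, with a median of 355, and 563 to 4116 in the 7 Col5a1CKO wounds, with a median of 1410.4.

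**Figure D2:**
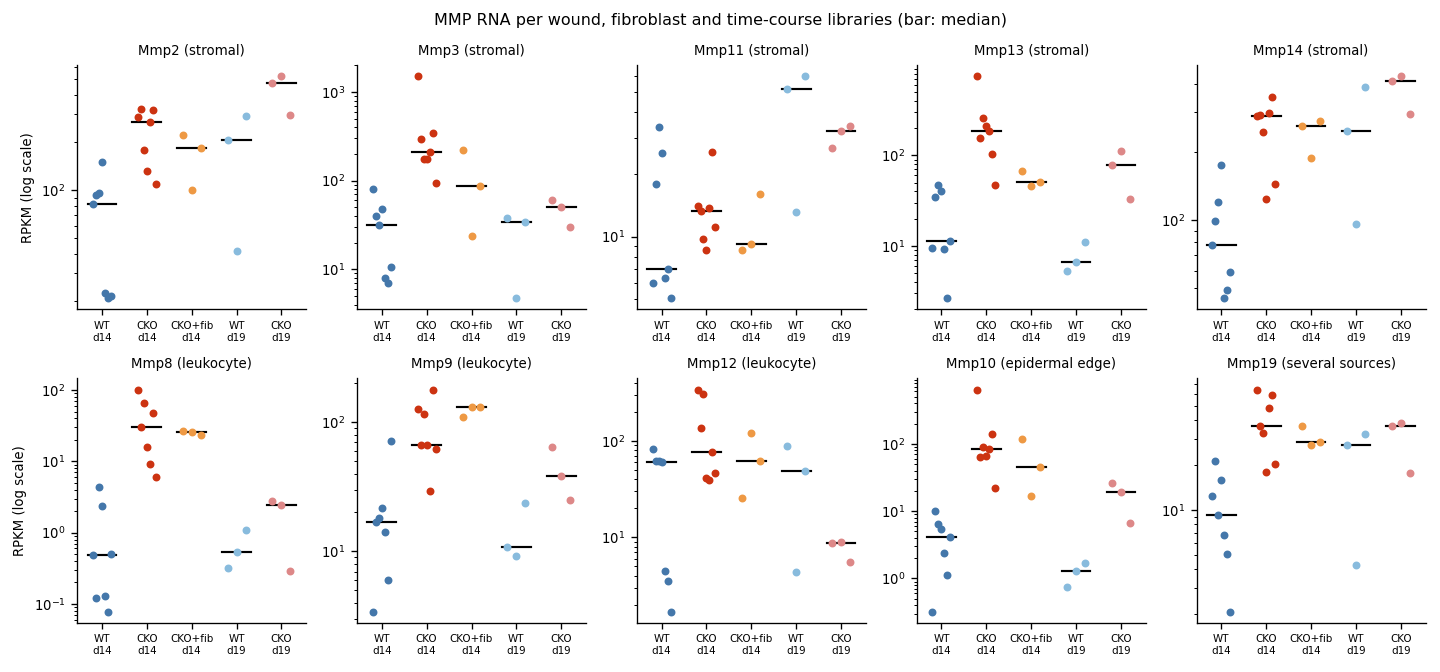
Each panel shows 1 gene in the fibroblast and time-course libraries, with RPKM on a log axis, 1 point per wound, a bar at the group median, and groups WT and Col5a1CKO (CKO) at day 14 and day 19 and CKO with WT fibroblasts (fib) at day 14. Mmp8 ranges from 0.0782 to 4.41 RPKM in WT and from 6.02 to 102 in Col5a1CKO wounds at day 14, while Mmp11 overlaps throughout.

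At day 14 the comparison of Col5a1CKO with WT wounds asks how loss of Col5a1 changes the wound's RNA. Of the 10 MMP genes, 8 rose and none fell at an adjusted p under 0.05 and a change of at least 2-fold in edgeR's quasi-likelihood test, against a background of 5.57% of 14367 genes higher and 2.71% lower. For lower members the count was also 0 at an unadjusted p and 0 by DESeq2. The median log2 fold change was 1.93 over the 10 genes and -0.03 over all genes tested. Over all genes 2.31% had every Col5a1CKO wound above every WT wound, and 1.69% below. The 8 were Mmp2, Mmp3, Mmp13 and Mmp14 of the stromal genes, Mmp8 and Mmp9 of the leukocyte genes, and Mmp10 and Mmp19.

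Among the stromal genes the stromelysin and the collagenase moved most. Mmp3, which cuts matrix proteins and activates other MMPs, had a lowest, median and highest level of 7.06, 31.2 and 79.9 RPKM in WT and of 93.8, 209 and 1499.6 RPKM in Col5a1CKO wounds. The groups did not overlap, the highest Col5a1CKO wound being replicate a. Mmp3 rose 12.2-fold (log2 fold change 3.61, SE 0.75, adjusted p = 0.0103, n = 7 and 7). Mmp13, the main collagenase of mouse skin, had 2.62, 11.4 and 47.7 RPKM in WT and 47.1, 185 and 752 RPKM in Col5a1CKO wounds. The lowest Col5a1CKO wound lay just under the highest WT wound. Mmp13 rose by a log2 fold change of 3.42 (SE 0.71, adjusted p = 0.0103).

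Mmp2, Mmp14 and Mmp11 moved less. Mmp2 had 20.9, 82.3 and 149.8 RPKM in WT and 110.0, 268 and 325 RPKM in Col5a1CKO wounds, and rose by a log2 fold change of 1.66 (SE 0.48, adjusted p = 0.0384). Mmp14, its activator at the cell surface, had 45.2, 78.0 and 176 RPKM in WT and 124, 288 and 349 RPKM in Col5a1CKO wounds, and rose by 1.39 on the log2 scale (SE 0.34, adjusted p = 0.0212). For both genes the groups overlapped at their edges. Mmp11, a stromelysin of remodelling stroma, had 5.04, 6.96 and 33.7 RPKM in WT and 8.61, 13.3 and 25.7 RPKM in Col5a1CKO wounds. Its median was higher and its fitted log2 fold change was -0.16 (SE 0.44, adjusted p = 0.849), and it was 1.43 in the upper library set alone, so no direction is given for it.

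Of the leukocyte genes, the neutrophil collagenase changed most and the macrophage elastase did not pass. Mmp8 had 0.0782, 0.488 and 4.41 RPKM in WT and 6.02, 30.6 and 102 RPKM in Col5a1CKO wounds, without overlap. It rose 32.8-fold (log2 fold change 5.03, SE 1.04, adjusted p = 0.0103). Mmp9 had 3.44, 17.0 and 71.5 RPKM in WT and 29.2, 66.7 and 178 RPKM in Col5a1CKO wounds. WT replicate g alone of the WT wounds reached the Col5a1CKO range. Mmp9 rose by 1.98 on the log2 scale (SE 0.58, adjusted p = 0.0413).

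Mmp12 had 1.70, 60.4 and 82.4 RPKM in WT and 38.9, 77.4 and 339.8 RPKM in Col5a1CKO wounds. The WT wounds split by library set, with 60.4 to 82.4 RPKM in replicates a to d and 1.70 to 4.43 RPKM in replicates e to g. The log2 fold change was 1.78 (SE 0.85, adjusted p = 0.192) over all wounds, 2.29 with the library set as a covariate (adjusted p = 0.0232) and 4.10 within the upper set (adjusted p = 0.037).

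Mmp10 and Mmp19, outside both classes, also rose at day 14. Mmp10 had 0.323, 4.20 and 10.2 RPKM in WT and 22.1, 83.7 and 642 RPKM in Col5a1CKO wounds, without overlap. It rose 36.4-fold (log2 fold change 5.18, SE 0.90, adjusted p = 0.00579), while summed keratinocyte markers were 45.7 to 82351 CPM in these Col5a1CKO wounds and 43961 to 165323 CPM in WT wounds, and their part in the result was not tested. Mmp19, which cuts basement membrane proteins, had 2.08, 9.29 and 21.3 RPKM in WT and 18.0, 36.9 and 64.6 RPKM in Col5a1CKO wounds. The lowest Col5a1CKO wound lay below the highest WT wound, and Mmp19 rose by 1.88 on the log2 scale (SE 0.45, adjusted p = 0.0186).

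Within the lower library set Mmp2, Mmp3, Mmp13, Mmp9, Mmp10 and Mmp19 rose, while Mmp14 (log2 fold change 1.04, adjusted p = 0.0667) and Mmp8 (4.57, adjusted p = 0.0602) missed the threshold. Within the upper set, with 3 WT and 2 Col5a1CKO wounds, Mmp2, Mmp3, Mmp14, Mmp8 and Mmp12 rose. Leaving out single wounds ended the call of Mmp2 (adjusted p from 0.0505 to 0.0777) or Mmp9 (0.0611 to 0.0864) in most cases and of no other gene. It moved a called fold by over 1.5 times for Mmp3 (log2 fold change 2.64), Mmp13 (2.76) and Mmp10 (4.07) without Col5a1CKO replicate a, for Mmp8 (5.93) without WT replicate c and for Mmp9 (2.68) without WT replicate g.

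At day 19 the same comparison was made with 3 wounds per genotype, and no MMP gene passed with edgeR. The background was 0.0198% of 15135 genes higher and 0% lower, so hardly any gene passed with this test. With edgeR 3 members (Mmp13, Mmp10 and Mmp9) were higher at an unadjusted p under 0.05 and 0 lower, and DESeq2 called these same 3 higher and 0 lower. Over all genes, edgeR had 815 higher and 943 lower at an unadjusted p under 0.05 and a 2-fold change. DESeq2 called 708 genes higher and 782 lower. Mmp13 was at 5.28, 6.69 and 11.0 RPKM in WT and at 78.3, 112 and 33.0 RPKM in Col5a1CKO wounds, with a log2 fold change of 3.62 (SE 0.59, adjusted p = 0.11). Mmp10 was at 0.756, 1.28 and 1.68 RPKM in WT and at 26.5, 19.4 and 6.70 RPKM in Col5a1CKO wounds (log2 fold change 4.19, SE 0.64, adjusted p = 0.11). In both genes every Col5a1CKO wound lay above every WT wound, as in 16.4% of all genes tested (18.5% lay below), and each adjusted p of edgeR stayed over the threshold.

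The leukocyte genes were spread differently at day 19. Mmp9 was at 10.8, 9.24 and 23.6 RPKM in WT and 64.5, 38.4 and 24.8 RPKM in Col5a1CKO wounds (log2 fold change 1.87, SE 0.57, adjusted p = 0.151). Mmp8 was at 0.320, 0.538 and 1.09 RPKM in WT and at 2.79, 2.43 and 0.291 RPKM in Col5a1CKO wounds, with overlap (1.83, adjusted p = 0.265). Mmp12 was at 88.6, 4.33 and 48.9 RPKM in WT and at 8.70, 8.86 and 5.58 RPKM in Col5a1CKO wounds, so the lowest of all was a WT wound (log2 fold change -2.30, SE 1.0, adjusted p = 0.223). The neutrophil collagenase was at or under 2.79 RPKM in every day 19 wound, where summed neutrophil markers were 319 to 1670 CPM in WT wounds and 585 to 2646 CPM in Col5a1CKO wounds.

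Mmp2 was at 206, 41.8 and 295 RPKM in WT and at 472, 522 and 298 RPKM in Col5a1CKO wounds, where the lowest Col5a1CKO value was close to the highest WT value (log2 fold change 1.54, adjusted p = 0.271). The other log2 fold changes were 1.17 for Mmp3, 0.94 for Mmp14, 0.83 for Mmp19 and -0.10 for Mmp11, all with overlapping groups. In a joint model the difference between the days in the genotype effect was called for 0% of 15954 genes and for 0 members (edgeR), with 1 member at an unadjusted p, Mmp12, and 0 by DESeq2. For Mmp12 the genotype effect at day 19 minus that at day 14 was -4.09 on the log2 scale (SE 1.57, adjusted p = 0.729). For Mmp8 that difference was -3.24 (SE 1.60) and for Mmp3 it was -2.44 (SE 1.23).

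Day 14 Col5a1CKO wounds with and without WT fibroblasts were compared to ask whether the injected cells change the wound's RNA. No MMP gene passed in either direction, with a background of 0% of 15659 genes higher and 0% lower. With edgeR 1 member, Mmp13, was lower at an unadjusted p under 0.05 and 0 were higher, and DESeq2 called 0 in either direction. Over all genes, 854 were lower and 37 higher at an unadjusted p under 0.05 and a 2-fold change. Every one of the 10 genes had overlapping groups, as had nearly all genes (0.326% lay entirely above and 1.76% entirely below).

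The largest fitted differences were in stromal genes and Mmp10. Mmp13 was at 67.3, 46.4 and 50.7 RPKM with fibroblasts, at the low end of the untreated range of 47.1 to 752 RPKM, with a log2 fold change of -2.32 (SE 0.80, adjusted p = 0.365). Mmp3 was at 219.5, 23.7 and 86.9 RPKM with fibroblasts, against 93.8 to 1499.6 RPKM untreated (log2 fold change -2.01, SE 1.03, adjusted p = 0.419). Mmp10 was at 118, 16.7 and 44.9 RPKM (log2 fold change -1.57, SE 1.09, adjusted p = 0.511). All 3 fibroblast wounds belong to the upper library set, and against the 2 untreated wounds of that set the log2 fold changes were smaller, at -0.41 for Mmp13, -0.91 for Mmp3 and -0.36 for Mmp10.

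Summed fibroblast markers were 36933 to 47584 CPM in the treated and 31907 to 130406 CPM in the untreated wounds, and of 7 such markers edgeR called 0, 4 were lower at an unadjusted p and 1 was lower by DESeq2. Their part in these differences was not tested.

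The leukocyte genes of the fibroblast-treated wounds lay within the untreated range, apart from 1 value of Mmp12. Mmp8 was at 26.7, 25.7 and 23.3 RPKM (log2 fold change -0.78, SE 0.81, adjusted p = 0.667) and Mmp9 at 109, 130.4 and 130.0 RPKM (0.33, SE 0.44). Mmp12 was at 25.8, 119 and 61.9 RPKM (-1.16, SE 0.86), and its sign turned to 0.20 within the upper set. Mmp2 (-0.57), Mmp19 (-0.48), Mmp11 (-0.40) and Mmp14 (-0.17) had fitted changes smaller than 2-fold.

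Fibroblast-treated Col5a1CKO wounds were then set against the same 7 WT wounds that served for untreated Col5a1CKO. Of the 10 MMP genes, 2 were higher, Mmp8 and Mmp10, and none lower, with a background of 3.77% of 15316 genes higher and 2.06% lower. For lower members the count was 0 at an unadjusted p and 0 by DESeq2. Mmp8 had a log2 fold change of 4.40 (SE 1.04, adjusted p = 0.0301) and Mmp10 one of 3.76 (SE 0.80, adjusted p = 0.018). The 3 treated wounds lay above all 7 WT wounds for Mmp8, Mmp10, Mmp9 and Mmp19, as they did for 9.92% of all genes, with 10.3% below.

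Mmp9 (log2 fold change 2.43, adjusted p = 0.0603) and Mmp14 (1.36, adjusted p = 0.0677) came close to the threshold. Mmp3 (1.75, adjusted p = 0.203), Mmp19 (1.53, adjusted p = 0.113), Mmp13 (1.25, adjusted p = 0.313), Mmp2 (1.23, adjusted p = 0.252), Mmp12 (0.76) and Mmp11 (-0.44) did not pass. In this comparison same-letter wounds deviated together (r from 0.162 to 0.502 over 3 letters), though the labels do not say that they are pairs. With the replicate letter as a block Mmp14 (1.11, adjusted p = 0.0153), Mmp9 (3.39, adjusted p = 0.011) and Mmp19 (1.02, adjusted p = 0.0438) were higher, while Mmp8 (5.0, adjusted p = 0.058) and Mmp10 (3.14, adjusted p = 0.349) were not. That block holds WT wounds a to c, all of the lower library set, and fibroblast wounds a to c, all of the upper. Group and library set cannot be told apart in it. Leaving out any 1 fibroblast wound, WT replicate a or WT replicate g ended the call of Mmp8 (adjusted p from 0.0516 to 0.098). Leaving out fibroblast wound a (0.146) or c (0.0568) ended that of Mmp10. The log2 fold change of Mmp8 became 5.31 without WT replicate c and that of Mmp10 2.70 without fibroblast wound a. With the library set as a covariate 8 of the 10 genes were higher, and within the upper set 8 were. Beyond Mmp8 and Mmp10 these were Mmp2 (log2 fold change 2.86 with the covariate), Mmp3 (3.60), Mmp13 (2.73), Mmp14 (2.13), Mmp12 (4.32) and Mmp19 (2.64).

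**Figure D3:**
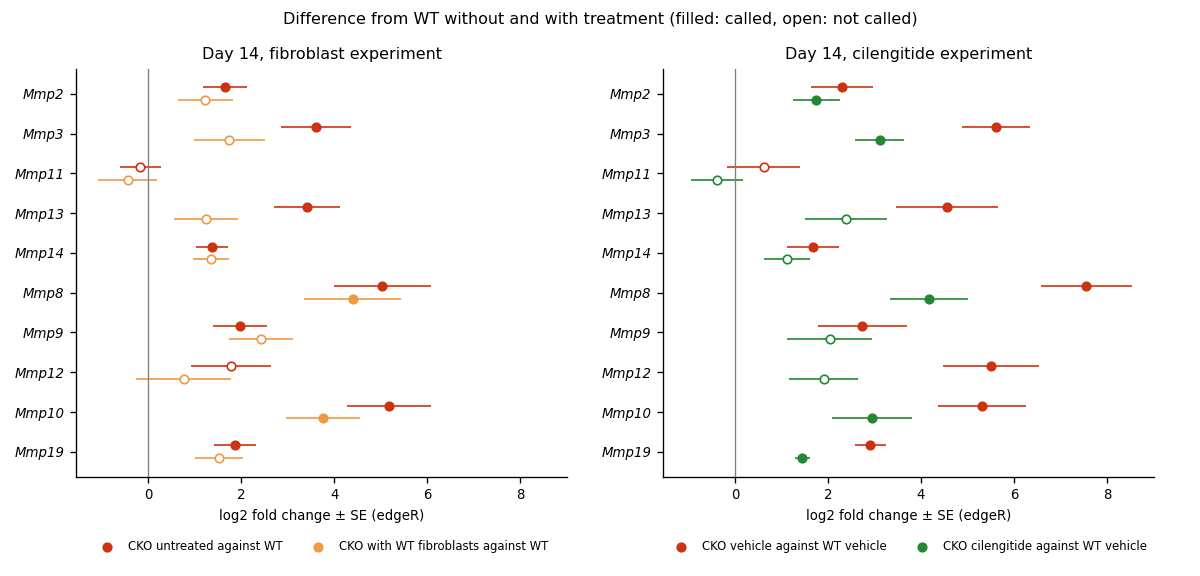
Points give the log2 fold change from WT with its standard error (edgeR) for each MMP gene, without and with treatment, for the fibroblast experiment at day 14 on the left and the cilengitide experiment on the right, where CKO is Col5a1CKO and filled points passed the call rule. With fibroblasts only Mmp8 and Mmp10 are filled, and with cilengitide Mmp2, Mmp3, Mmp8, Mmp10 and Mmp19 are. In each panel the same WT wounds serve both comparisons.

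In the separate experiment with vehicle, Col5a1CKO and WT wounds differed for 9 of the 10 MMP genes, all higher, with a background of 17.5% of 15434 genes higher and 13.4% lower. No member was lower, with 0 at an unadjusted p and 0 by DESeq2. The median log2 fold change was 3.73 over the 10 genes, 2.30 over the 5 stromal and 5.51 over the 3 leukocyte genes, beside 0.02 over all genes. Only Mmp11 did not pass. This table gives no transcript lengths, so its levels are CPM after trimmed-mean (TMM) scaling and are compared within a gene.

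The leukocyte genes had some of the widest gaps. Mmp8 was at 1.40, 1.03, 0.989 and 0.286 CPM in WT and at 71.2, 35.7, 278 and 335 CPM in Col5a1CKO wounds, a rise of 187-fold (log2 fold change 7.55, SE 0.97, adjusted p = 0.00122). Mmp12 was at 117, 15.4, 27.6 and 27.9 CPM in WT and at 689, 649.7, 4257 and 3243 CPM in Col5a1CKO wounds (5.51, SE 1.03, adjusted p = 0.00419). Mmp9 was at 50.2, 270.5, 18.8 and 15.1 CPM in WT and at 756, 373, 497 and 818 CPM in Col5a1CKO wounds (2.73, SE 0.96, adjusted p = 0.0463). The groups did not overlap for these genes, as in 24.1% of all genes above and 25.1% below, and for Mmp8 and Mmp12 replicates 3 and 4 were the highest Col5a1CKO wounds.

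Among the stromal genes replicate 1 was the highest Col5a1CKO wound for Mmp2, Mmp3, Mmp13 and Mmp14. Mmp3 was at 25.6, 31.3, 10.1 and 16.6 CPM in WT and at 2173, 571, 1110.0 and 349.7 CPM in Col5a1CKO wounds (log2 fold change 5.61, SE 0.74, adjusted p = 0.00128). Mmp13 was at 31.2, 106, 8.20 and 6.30 CPM in WT and at 1915, 395, 883 and 505 CPM in Col5a1CKO wounds (4.56, SE 1.10, adjusted p = 0.0113). Both genes were separated without overlap.

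Mmp2 was at 384, 405, 160.1 and 91.9 CPM in WT and at 1861, 1715, 1321 and 352 CPM in Col5a1CKO wounds, so replicate 4 overlapped WT (2.30, SE 0.67, adjusted p = 0.0234). Mmp14 was at 553, 639.9, 161 and 146 CPM in WT and at 1688, 1259.6, 1241 and 749.6 CPM in Col5a1CKO wounds (1.68, SE 0.57, adjusted p = 0.0406). Mmp11 was at 85.0, 71.1, 12.4 and 21.8 CPM in WT and at 85.1, 104, 98.2 and 11.5 CPM in Col5a1CKO wounds (0.62, SE 0.79, adjusted p = 0.541), with the lowest value in a Col5a1CKO wound.

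Mmp10 and Mmp19 were separated as well. Mmp10 was at 7.40, 20.2, 2.01 and 3.61 CPM in WT and at 728, 259, 236 and 131 CPM in Col5a1CKO wounds (log2 fold change 5.31, SE 0.95, adjusted p = 0.00351). Mmp19 was at 38.5, 33.2, 39.5 and 23.04 CPM in WT and at 322, 223, 353 and 139.6 CPM in Col5a1CKO wounds (2.91, SE 0.34, adjusted p = 0.000905). Leaving out single wounds left 6 to 9 genes called, and the genes that lost their call were Mmp2, Mmp14 and Mmp9.

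In this comparison the GC balance moved with genotype, at -0.548 to -0.204 in the Col5a1CKO and -0.0268 to 0.127 in the WT libraries (log2 difference of GC-rich and GC-poor genes), so it and genotype cannot be told apart, and the cilengitide libraries were at -0.174 to 0.124. Xist was at most 1.56 CPM in the 4 vehicle-treated Col5a1CKO wounds, while Y-linked RNA exceeded Xist in 3 of them, in 2 of 4 WT and in 2 of 4 cilengitide-treated wounds. The part of either in the result was not tested. Single wounds moved a called fold by over 1.5 times, with log2 fold changes without WT replicate 2 of 5.89 for Mmp13, 4.40 for Mmp9 and 6.25 for Mmp10. Without Col5a1CKO replicate 1 they were 4.98 for Mmp3, 3.92 for Mmp13 and 4.61 for Mmp10. For Mmp12 it was 6.51 without WT replicate 1 and 4.92 without Col5a1CKO replicate 3.

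**Figure D4:**
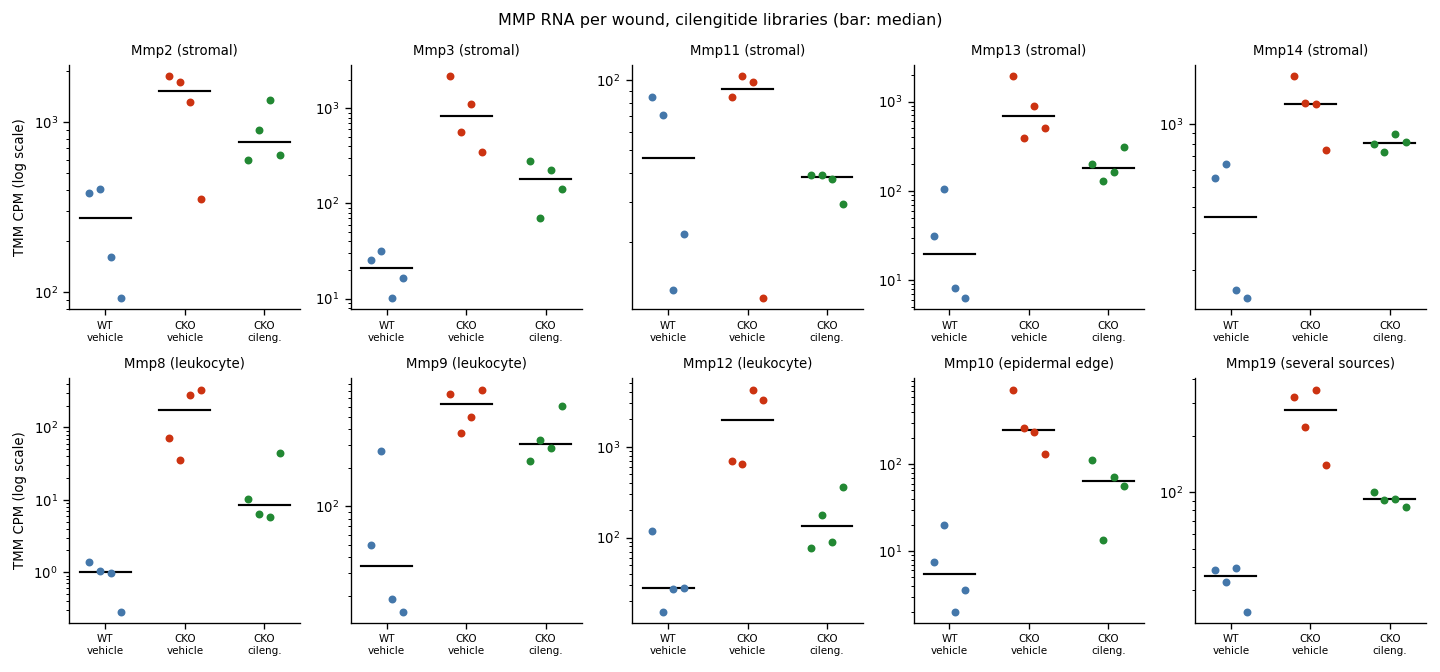
Each panel shows 1 gene in the cilengitide experiment, with TMM-scaled CPM on a log axis, 1 point per wound, a bar at the group median, and groups WT with vehicle, Col5a1CKO (CKO) with vehicle and CKO with cilengitide. The median of the cilengitide-treated wounds lies between those of the other groups for each gene except Mmp11. All its wounds lie between the other groups without overlap only for Mmp3, Mmp13 and Mmp19. Mmp8 with 5.80 to 44.6 CPM lies above 0.286 to 1.40 in WT and overlaps the vehicle-treated CKO wounds, the lowest of which is at 35.7 CPM.

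Cilengitide against vehicle in Col5a1CKO mice asks what blocking these integrins does to the wound's RNA. Of the 10 MMP genes, 6 fell and none rose, with a background of 6.59% of 15563 genes lower and 6.48% higher. For higher members the count was 0 at an unadjusted p and 0 by DESeq2. The median log2 fold change was -1.85 over the 10 genes and -0.06 over all genes, and it was -1.03 over the stromal and -3.42 over the leukocyte genes. The 6 were Mmp3, Mmp13, Mmp8, Mmp12, Mmp10 and Mmp19.

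The macrophage elastase and the neutrophil collagenase had the largest falls. Mmp12 was at 77.5, 179, 90.7 and 361 CPM with cilengitide, below all vehicle wounds (log2 fold change -3.64, SE 0.85, adjusted p = 0.0208). Mmp8 was at 10.3, 6.43, 5.80 and 44.6 CPM, with replicate 4 above the lowest vehicle wound (-3.42, SE 0.99, adjusted p = 0.0399). The third leukocyte gene, Mmp9, was at 228, 329, 288 and 606 CPM and did not pass (-0.75, SE 0.38, adjusted p = 0.176).

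Mmp3 was at 282, 69.9, 222 and 141 CPM with cilengitide (log2 fold change -2.54, SE 0.67, adjusted p = 0.029). Mmp13 was at 199.6, 129, 162 and 306 CPM (-2.21, SE 0.55, adjusted p = 0.0253). Mmp10 was at 113, 13.5, 71.2 and 56.5 CPM (-2.40, SE 0.73, adjusted p = 0.0471). For each of these genes the treated wounds lay below all vehicle wounds, as they did for Mmp12 and Mmp19 and for 13.4% of all genes, with 18.1% above.

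Mmp19 was at 99.6, 90.5, 92.2 and 82.9 CPM, below all vehicle wounds and within a narrow range (log2 fold change -1.50, SE 0.28, adjusted p = 0.0113). The other stromal genes did not pass. Mmp2 was at 596, 899, 1349 and 639.7 CPM (-0.58, SE 0.51, adjusted p = 0.428), Mmp14 at 801, 736, 891 and 816 CPM (-0.60, SE 0.27, adjusted p = 0.133) and Mmp11 at 39.2, 39.2, 37.7 and 29.2 CPM (-1.03, SE 0.56, adjusted p = 0.209). Without vehicle replicate 3 of Col5a1CKO, or without cilengitide replicate 1, 2 or 3, Mmp19 alone kept its call. Without vehicle replicate 1 the log2 fold changes were -1.88 for Mmp3, -1.53 for Mmp13 and -1.68 for Mmp10, and without cilengitide replicate 4 that of Mmp8 was -4.49.

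Against vehicle-treated WT, the cilengitide-treated Col5a1CKO wounds had 5 of the 10 MMP genes higher and none lower, with a background of 5.15% of 15514 genes higher and 3.43% lower. For lower members the count was 0 at an unadjusted p and 0 by DESeq2. The WT wounds are those of the vehicle comparison. For 6 members every cilengitide-treated wound lay above every WT wound, as for 14.5% of all genes, with 15.5% below. Mmp8 (log2 fold change 4.17, SE 0.84, adjusted p = 0.0213), Mmp3 (3.11, SE 0.52, adjusted p = 0.0193), Mmp10 (2.95, SE 0.86, adjusted p = 0.0469), Mmp2 (1.75, SE 0.50, adjusted p = 0.0455) and Mmp19 (1.45, SE 0.17, adjusted p = 0.0193) were higher. Mmp13 (2.40, adjusted p = 0.0843), Mmp9 (2.03, adjusted p = 0.137), Mmp12 (1.91, adjusted p = 0.0977), Mmp14 (1.12, adjusted p = 0.124) and Mmp11 (-0.38, adjusted p = 0.625) did not pass. Without cilengitide replicate 2, 3 or 4 none of the 10 passed, with an adjusted p of 0.0517 to 0.0556 for Mmp3, Mmp8 and Mmp19. Without WT replicate 3 there were 2 and without WT replicate 4 or cilengitide replicate 1 there were 3. The log2 fold change of Mmp8 was 3.04 without cilengitide replicate 4 and that of Mmp10 3.89 without WT replicate 2.

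A gene was taken to stay high with a treatment if it was called higher both in untreated, or vehicle-treated, Col5a1CKO wounds and in treated Col5a1CKO wounds, each against WT. In the main fits these were Mmp8 and Mmp10 with fibroblasts, and Mmp2, Mmp3, Mmp8, Mmp10 and Mmp19 with cilengitide. With the library set as a covariate Mmp2, Mmp3, Mmp12, Mmp13, Mmp14 and Mmp19 were also called higher in fibroblast-treated than in WT wounds. Mmp8, a leukocyte gene, stayed high with either treatment although it fell with cilengitide. With fibroblasts its call against WT ended without any 1 fibroblast wound or WT replicate a or g (adjusted p from 0.0516 to 0.098), and with the replicate letter as a block. With cilengitide it ended without WT replicate 3 or cilengitide replicate 2, 3 or 4 (0.0517 to 0.056). Leaving out any 1 of these cilengitide wounds also ended the calls of Mmp3 and Mmp19. Mmp2, a stromal gene, stayed high with cilengitide, and its treated and vehicle-treated levels overlapped. Its edgeR call against WT ended without any 1 cilengitide wound or WT replicate 1, 3 or 4 (adjusted p from 0.0518 to 0.109). So did the call of Mmp10 (0.055 to 0.11). Both calls also ended with genes of at least 1 count and with all groups in 1 fit. A gene that missed the threshold after treatment was not thereby shown to have returned to the WT level, and Mmp9 with fibroblasts, at 109 to 130.4 RPKM against a WT median of 17.0, is an example.

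The stromal and leukocyte genes were set against markers of their usual source cells, since marker levels moved with genotype and treatment. With vehicle, 17.5% of all genes were higher in Col5a1CKO than in WT wounds and 13.4% lower. Higher there were 8 of 9 neutrophil, 9 of 9 macrophage, 5 of 5 pan-leukocyte and 3 of 4 myofibroblast markers. So were 2 of 7 fibroblast markers, not far above that share, while 4 of 9 keratinocyte markers were lower. At day 14 in the first table the shares over all genes were 5.57% higher and 2.71% lower. Higher there were 4 of 9 neutrophil, 3 of 9 macrophage, 3 of 5 pan-leukocyte, 1 of 7 fibroblast, 3 of 4 myofibroblast and 4 of 5 endothelial markers. EdgeR called 0 of 9 keratinocyte markers (0 at an unadjusted p, 1 lower by DESeq2). With cilengitide against vehicle 2 of 9 neutrophil, 4 of 9 macrophage, 5 of 5 pan-leukocyte and 1 of 4 myofibroblast markers were lower, beside 6.59% of all genes. Of 9 keratinocyte markers 3 were higher, beside 6.48% of all genes. Of 7 fibroblast markers edgeR called 0, while 2 were lower at an unadjusted p and 2 by DESeq2. Adipocyte and skeletal muscle markers were not called in any comparison by edgeR, at an unadjusted p or by DESeq2. No marker was at 0 in every library of a group.

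The summed neutrophil markers were 96.2 to 2208 CPM in vehicle-treated WT, 1649 to 44598 CPM in vehicle-treated Col5a1CKO and 3143 to 7226 CPM in cilengitide-treated Col5a1CKO wounds. Summed macrophage markers were 337 to 1281 CPM, 4168 to 10282 CPM and 1752 to 2496 CPM in the same order. Summed fibroblast markers overlapped, at 9964 to 55658 CPM, 24146 to 116043 CPM and 39627 to 78345 CPM. Summed keratinocyte markers were 74145 to 109516 CPM, 89.2 to 23529 CPM and 48306 to 86544 CPM. The part of these cell types in the MMP differences was not tested.

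Levels were also taken per unit of marker RNA in each wound (this measure was picked once values had been seen, and no test is given). Mmp8 still separated untreated or vehicle-treated Col5a1CKO from WT wounds at day 14 in both tables, and Mmp9 overlapped in both. Mmp12 separated them with vehicle, and in the first table within the upper library set but not over all wounds. The markers were not traced to their source cells in these wounds, so a ratio is not a level per cell. Mmp8 per 1000 CPM of neutrophil markers was 0.466 to 2.97 CPM in vehicle-treated WT, 7.51 to 21.7 CPM in vehicle-treated Col5a1CKO and 1.11 to 6.17 CPM in cilengitide-treated wounds. In the first table at day 14 it was 0.154 to 2.46 CPM in WT, 4.13 to 52.2 CPM in Col5a1CKO and 8.16 to 9.85 CPM in fibroblast-treated wounds, and WT stood apart. Mmp9 per 1000 CPM of the same markers overlapped between the vehicle-treated groups, at 9.02 to 157 CPM for WT wounds and 18.3 to 226 CPM for Col5a1CKO. Mmp12 per 1000 CPM of macrophage markers was 16.7 to 91.5 CPM, 140.3 to 506 CPM and 44.3 to 145 CPM in vehicle-treated WT, vehicle-treated Col5a1CKO and cilengitide-treated wounds, while in the first table at day 14 the medians of WT and Col5a1CKO were 89.3 and 94.2 CPM.

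For the stromal genes the same was done with fibroblast markers. At day 14 WT and Col5a1CKO wounds overlapped for Mmp13 (0.687 to 5.41 CPM and 4.53 to 34.0 CPM) and Mmp2 (5.03 to 11.7 CPM and 10.8 to 21.4 CPM), and Mmp3 was at 0.971 to 3.93 CPM and 5.24 to 45.7 CPM. At day 19 the groups overlapped for Mmp3, at 0.635 to 1.34 CPM and 0.681 to 0.984 CPM. In the cilengitide experiment Mmp13 per 1000 CPM of these markers was 0.561 to 2.24 CPM in vehicle-treated WT, 3.41 to 23.3 CPM in vehicle-treated Col5a1CKO and 1.77 to 5.83 CPM in cilengitide-treated wounds. Mmp3 was 0.460 to 1.66 CPM, 4.92 to 26.5 CPM and 0.961 to 7.11 CPM in that order. Mmp2 was 6.90 to 11.3 CPM, 14.6 to 26.4 CPM and 12.2 to 17.2 CPM, a narrower range, and its cilengitide-treated values lay above all WT values. Mmp14 overlapped, with 9.94 to 14.7 CPM, 10.9 to 31.0 CPM and 10.1 to 20.2 CPM. Mmp10 was set against keratinocyte markers in the same way. Per 1000 CPM of these, day 14 WT wounds reached 0.465 CPM at most, while untreated Col5a1CKO wounds spanned 0.632 (replicate g) to 37045.5 (replicate a). Mmp10 exceeded these summed markers in day 14 Col5a1CKO replicates a and f (1797.84), in vehicle-treated Col5a1CKO replicate 2 (2906.83) and in no other wound. Which cells made Mmp10 was not tested.

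**Figure D5:**
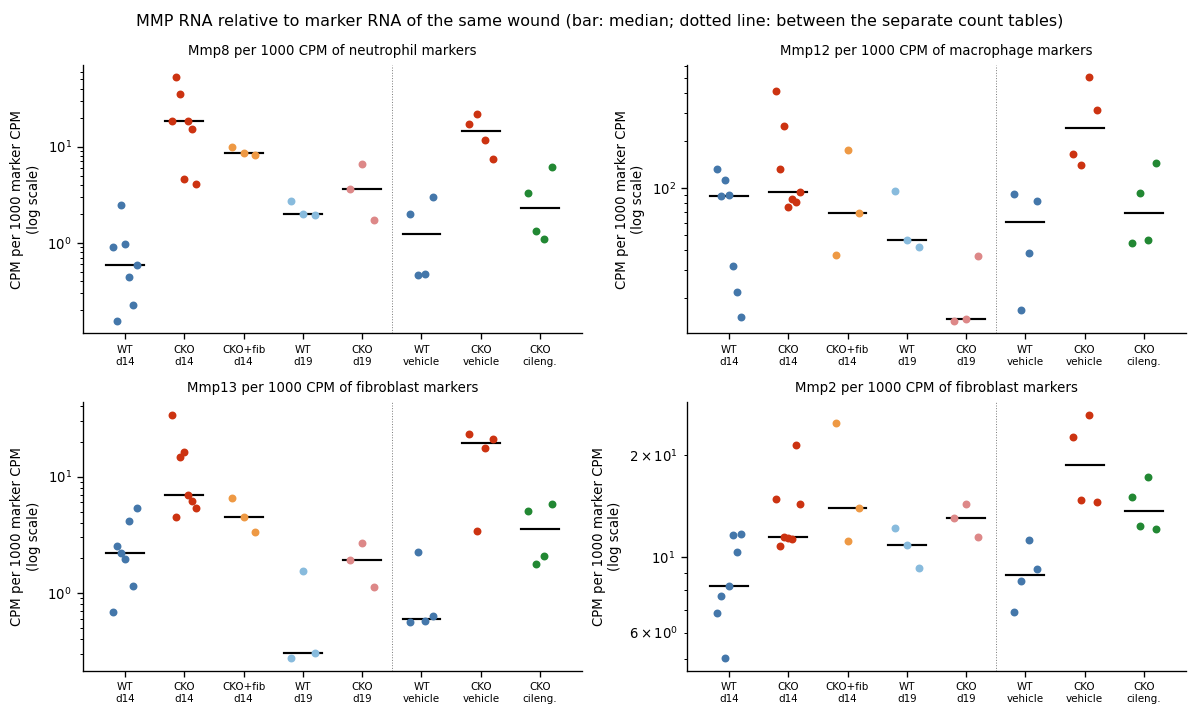
Points give, per wound and on a log axis, the CPM of Mmp8, Mmp12, Mmp13 and Mmp2 per 1000 CPM of the summed markers of neutrophils, macrophages, fibroblasts and fibroblasts, with bars at group medians and a dotted line between the separate count tables, where CKO is Col5a1CKO and fib marks WT fibroblasts. For Mmp8 the median is 1.24 in vehicle-treated WT, 14.5 in vehicle-treated Col5a1CKO and 2.30 in cilengitide-treated wounds.

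The genes around the MMPs were counted list by list, where a count covers the members that passed the filter on low counts. Of 4 MMP inhibitors, Timp1 was higher at day 14 (log2 fold change 1.78, adjusted p = 0.0129), and with vehicle Timp1 (2.08, adjusted p = 0.0052) and Timp2 (1.71, adjusted p = 0.0459) were. Of 6 genes of the plasminogen system, whose protease plasmin activates MMP proenzymes, 3 were higher at day 14, among them Serpine2, an inhibitor of plasminogen activation (2.64, adjusted p = 0.0252). With vehicle 4 of 6 were higher, led by Plaur, the urokinase receptor (5.49, adjusted p = 0.00377). With cilengitide against vehicle Serpine2 (-1.82, adjusted p = 0.0357) and Plaur (-2.99, adjusted p = 0.0439) fell.

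Of 10 cytokines and receptors known to induce MMPs, 4 were higher at day 14, led by the interleukin 1 receptor Il1r1 (log2 fold change 2.35, adjusted p = 0.00369) and Il6 (7.70, adjusted p = 0.00421). With vehicle 7 were higher, led by Il6 (6.35, adjusted p = 0.00103) and the T cell cytokine Il17a (7.01, adjusted p = 0.00163). With cilengitide 4 fell, led by Il17a (-4.91, adjusted p = 0.0102) and Il6 (-3.13, adjusted p = 0.0176). Of 7 AP-1 factors 0 were called at day 14 (edgeR, with 0 at an unadjusted p and 0 by DESeq2), and with vehicle 5 were higher, led by Fos (3.43, adjusted p = 0.00206) and Fosl1 (2.78, adjusted p = 0.00888). Fos fell with cilengitide (-2.01, adjusted p = 0.0303).

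Of 7 surface partners of MMPs, Lrp1, a receptor that takes up MMPs (1.70, adjusted p = 0.00218), and Itgb3, the beta 3 integrin chain that cilengitide blocks (1.52, adjusted p = 0.0133), were higher at day 14. With vehicle 5 were higher, led by Itgb3 (2.37, adjusted p = 0.00169), and the epithelial collagen receptor Ddr1 was lower (-3.15, adjusted p = 0.000839). With cilengitide Itgb3 fell (-1.09, adjusted p = 0.0258) and Ddr1 rose (2.26, adjusted p = 0.00665). Of 10 matrix substrates 3 were higher at day 14, among them the basement membrane collagens Col4a2 (1.90, adjusted p = 0.00563) and Col4a1 (1.66, adjusted p = 0.0191), and with vehicle Fn1 (1.66, adjusted p = 0.00579) and Vcan (1.60, adjusted p = 0.00695) were.

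Of 8 ADAMTS proteases, relatives that cut proteoglycans and procollagens, Adamts4 was higher at day 14 (log2 fold change 1.59, adjusted p = 0.041) and fell with cilengitide (-1.20, adjusted p = 0.0488), and with vehicle Adamts14 was higher (1.20, adjusted p = 0.00511). Of 8 other MMP genes 0 passed at day 14 with edgeR, 1 was higher at an unadjusted p and 1 by DESeq2. With vehicle Mmp25, a membrane-anchored MMP of neutrophils, was higher (3.36, adjusted p = 0.00155) and Mmp28, an MMP of intact epidermis, was lower (-1.81, adjusted p = 0.00138), of 9 tested. With cilengitide Mmp25 fell (-1.99, adjusted p = 0.0168), of 10 tested. The vehicle counts of ADAMTS proteases, other MMP genes and matrix substrates were near or below the shares over all genes (17.5% higher, 13.4% lower). A single called gene is no result about its list.

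With WT fibroblasts against untreated Col5a1CKO none of these genes passed with edgeR, as none of all genes did, while 0 to 2 of a list were lower at an unadjusted p, 0 were higher, and DESeq2 called 0. In fibroblast-treated Col5a1CKO against WT wounds the genes that passed were 1 of 6 of the plasminogen list (Plaur, log2 fold change 2.62, adjusted p = 0.0403), 3 of 10 cytokines and receptors (led by Il1r1, 1.54, adjusted p = 0.0123, and Il17a, 5.64, adjusted p = 0.0308), 2 of 7 AP-1 factors (Fos, 1.94, adjusted p = 0.0185, and Fosl2, 1.06, adjusted p = 0.039), Col4a2 (1.81, adjusted p = 0.0146) and Lrp1 (1.69, adjusted p = 0.00189), all higher. In cilengitide-treated Col5a1CKO against WT wounds 2 of 5 inhibitors, 2 of 6 plasminogen genes and 4 of 10 cytokines and receptors were higher, Timp1 among them (1.29, adjusted p = 0.0403). So were 3 of 7 AP-1 factors, 2 of 10 substrates and 2 of 7 surface partners. Over all genes 5.15% were higher in that comparison, and 3.77% in fibroblast-treated Col5a1CKO against WT wounds. At day 19 none of these lists held a gene called by edgeR, while 0 to 5 of a list were higher at an unadjusted p and DESeq2 called 0 to 3 higher, with 1 surface partner lower by either.

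The genes whose levels followed each MMP most closely were sought among 11493 genes, by Pearson r of log2(CPM + 1) around the group means, over the 23 libraries of the first table and the 12 of the second, ranked by the smaller r. These points share library, depth and GC balance, and r is given as a description. Mmp14 was closest to Fkbp10, a chaperone of collagen (r = 0.952 and 0.965), Emilin1 and Col1a1, and Mmp2 to Pcolce, an enhancer of procollagen processing (r = 0.954 and 0.954), C1qtnf6 and Cpxm1. Mmp11 was closest to Mxra8 (r = 0.897 and 0.898), Col1a1 and Glb1.

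The inducible stromal genes had other neighbours and lower r. Mmp13 was closest to Tnc, the wound matrix protein tenascin C (r = 0.848 and 0.920), and Vegfc, and Mmp3 to Cp, which encodes ceruloplasmin (r = 0.773 and 0.777), Tnfsf11 and Il1rl1. Of the leukocyte genes, Mmp8 was closest to Cd300lf, a receptor of myeloid cells (r = 0.946 and 0.939), Trim30b and 1810033B17Rik, and Mmp12 to Cd84, a surface receptor of leukocytes (r = 0.938 and 0.888), Dock11 and Rnf13. Among the genes closest to Mmp9 were Fblim1 (r = 0.743 and 0.905) and Lrrc59 (r = 0.730 and 0.817). Mmp10 was closest to Mmp13 itself (r = 0.782 and 0.761), 2610109H07Rik and Hmga2, and Mmp19 to Thy1, a surface protein of fibroblasts and T cells (r = 0.837 and 0.821), Tmem176b and Nbl1.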

How the data were processed

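Bulk RNA-seq of wound biopsies was analysed. The authors deposited raw counts, per RefSeq transcript for the fibroblast and time-course libraries and per gene symbol for the cilengitide libraries. Their methods give 50 bp single-end reads, alignment by HISAT2 to NCBI37/mm9 and counting on RefSeq exons in SeqMonk, without stating if the cilengitide libraries were treated alike. Versions and the strand setting are not given in the sources used here. Rows without a gene name were left out (30 in the first table, at most 0.0694% of a library's counts, and 1 in the second). For each symbol the transcript with most counts was kept (Mmp19 had 2 transcripts), and RPKM was computed from the deposited lengths.

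Genes were tested within each pair of groups with edgeR 4.0.16 in R 4.3.3 (quasi-likelihood fit with robust = TRUE, TMM scaling, filterByExpr at 10 counts). Calls needed a change of at least 2-fold and a Benjamini-Hochberg adjusted p, over all genes tested, of under 0.05. The tests were tried on simulated counts first. By the methods, n counts separate biological replicates. Library depth limits low levels such as Mmp8 in WT.

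Alternatives were DESeq2 1.42.0, RLE size factors, library size only, no filter beyond 1 count, 1 fit of all groups, the library set as a covariate or alone, the replicate letter as a block, the sum of transcripts, 3-fold, an unadjusted p and leaving out each replicate. The letter was taken to pair wounds where every pair of deviations from the group means correlated above 0.1. This held in fibroblast-treated Col5a1CKO against WT (r from 0.162 to 0.502 over 3 letters, 2 of them closest to their own letter). A block fit kept only letters shared by both groups, so there it left out WT wounds d to g. Titles of the cilengitide experiment carry a number per wound that no other wound shares, so its replicates were numbered in accession order and could not be paired.

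The members, gene lists and marker lists were chosen with earlier results of these data known. Named are the 10 members, of each list at most 2 called genes per comparison with the smallest adjusted p, the 3 genes most like each member of those averaging 5 CPM or more, and Col5a1 and Col1a1. Some genes that met this rule are not reported here. The other MMP genes of the chromosome 9 cluster were named after their counts were seen. Promoters are RefSeq's for GRCm38.p6, and GENCODE's NCBI37 annotation gave the gene positions. Figures were drawn with matplotlib 3.10.9, and tables made with pandas 2.3.3 and numpy 2.4.6 in Python 3.11.15.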

Additional observations from a re-analysis of the deposited data

Results flagged for a closer look

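Of 50 sets of a gene and a group of 4 or 7 wounds, 9 held a wound far from the others of its group by Dixon's test at the 95% level. By chance that test flags about 1 in 20 sets of normally distributed values. It was run on RPKM and CPM without logs, and some flags share a wound, so the 9 cannot be set against that rate. Col5a1CKO replicate a at day 14 was the highest for Mmp3 (1499.6 RPKM, the others 93.8 to 343), Mmp13 (752 RPKM, the others 47.1 to 263) and Mmp10 (642 RPKM, the others 22.1 to 140.3). Without it Mmp3 (log2 fold change 2.64, adjusted p = 0.0201), Mmp13 (2.76, adjusted p = 0.0233) and Mmp10 (4.07, adjusted p = 0.0101) were still higher in Col5a1CKO than in WT wounds by edgeR. Mmp11 stood out in Col5a1CKO replicate f at day 14 (25.7 RPKM, the others 8.61 to 14.1).

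Mmp9 stood out in WT replicate g at day 14 (71.5 RPKM, the others 3.44 to 21.6), and without that wound it was higher in fibroblast-treated Col5a1CKO than in WT wounds (log2 fold change 3.11, adjusted p = 0.00552). In the cilengitide experiment Mmp9 was high in WT replicate 2 with vehicle (270.5 CPM, the others 15.1 to 50.2). Without that wound Mmp9 (3.71, adjusted p = 0.0128) and Mmp13 (3.73, adjusted p = 0.0164) were higher in cilengitide-treated Col5a1CKO than in WT wounds. Mmp12 was high in WT replicate 1 with vehicle (117.2 CPM, the others 15.4 to 27.9), and without it Mmp12 was also higher in that comparison (2.89, adjusted p = 0.0324). With cilengitide, replicate 4 was the highest for Mmp8 (44.6 CPM, the others 5.80 to 10.3) and the lowest for Mmp11 (29.2 CPM, the others 37.7 to 39.2).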

How the results depend on the processing

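Counts of called MMP genes stayed within 1.5 times in 239 of 268 repeats under the alternatives and moved in 29. At day 14 the 8 higher genes became 5 in the upper library set. At day 19 the 0 became 3 with DESeq2, 3 at an unadjusted p and 0 to 3 when 1 wound was left out (3 without WT replicate c). For WT fibroblasts against untreated Col5a1CKO the 0 lower genes became 1 at an unadjusted p and 3 with the replicate letter as a block (Mmp3 -2.64, Mmp13 -2.69 and Mmp10 -1.96). That block holds only wounds a to c, the untreated ones all of the lower library set and the treated ones all of the upper. For fibroblast-treated Col5a1CKO against WT the 2 higher genes became 4 with DESeq2, 6 at an unadjusted p, 8 with library set in the model, 8 in the upper set and 0 to 3 when 1 wound was left out. The 6 genes that fell with cilengitide became 1 to 6 when 1 wound was left out. The 5 that were higher with cilengitide against WT became 8 with DESeq2, 8 at an unadjusted p, 3 with genes of at least 1 count, 3 with all groups in 1 fit and 0 to 7 when 1 wound was left out. The difference between the days went from 0 to 1 at an unadjusted p.

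Of the single genes 25 repeats turned direction, none of them for a gene called in that comparison. Mmp11 turned at day 14 with the replicate block (0.16), in the upper set (1.43) and when 1 wound was left out (-0.36 to 0.19), at day 19 with the block (0.20) and leaving out 1 wound (-0.55 to 0.35), for fibroblast-treated Col5a1CKO against WT with the covariate (0.77) and the upper set (0.75), and for cilengitide against WT (-0.69 to 0.052 leaving out 1 wound). With fibroblasts against untreated, Mmp14 became 0.0056 in the upper set and Mmp12 0.16 with the covariate and 0.20 in the upper set. Against WT Mmp12 became -0.40 with the block, which holds WT wounds of the lower set only. For the difference between the days, library size alone turned Mmp11 (-0.39) and Mmp13 (-0.26), and leaving out 1 wound gave -0.39 to 0.51 for Mmp11, -0.23 to 0.65 for Mmp13, -0.62 to 0.52 for Mmp2, -0.88 to 0.16 for Mmp14 and -0.54 to 0.55 for Mmp9. The cause was not tested. Same-letter wounds shared only a letter at day 14 (mean r 0.186, 3 of 7 closest to their own letter), at day 19 and for fibroblasts against untreated, and the block changed no other count of calls by over 1.5 times. Library size in place of TMM moved the median of all genes from -0.03 to 0.13 at day 14, where calls went from 800 higher and 390 lower to 1018 and 246, from -0.01 to -0.39 at day 19 and from 0.03 to 0.16 for fibroblast-treated Col5a1CKO against WT. With cilengitide against vehicle it changed the calls from 1008 higher and 1025 lower to 1217 and 833. Groups of 3 or 4 wounds limit what could be called, and single low counts limit Mmp8 in WT.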

Other observations

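The chromosome 9 cluster holds 5 further MMP genes, Mmp1b at the 3′ end of Mmp12, Mmp1a between Mmp3 and Mmp10, and Mmp27, Mmp20 and Mmp7 beyond Mmp8. Mmp7, the matrilysin of gland epithelia, had 0 to 4 counts per library, in either table. Mmp20, the enamel protease, had 0 to 5 counts in the first and 0 to 11 in the second table, and Mmp1a, a mouse collagenase related to human MMP1, had 0 to 23 and 0 to 47 counts. Mmp27 had 16 to 337 and 73 to 317 counts, in the same order, and Mmp1b had 0 to 657 and 2 to 403. Mmp27 was tested in every pair of groups and passed in none by edgeR, with a mean of 7.65 CPM in WT and 5.22 CPM in Col5a1CKO wounds at day 14 (log2 fold change -0.58, adjusted p = 0.669).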
